A study of Mus musculus with 22 samples.

Results

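The genes described here encode parts of the splicing machinery and RNA helicases. They were chosen by symbol alone, as every gene whose single annotated symbol starts with Snrp, Hnrnp, Srsf, Sf3, Prpf, U2af, Ddx or Dhx. The rule named 66 genes, of 6117 genes with 1 symbol on the arrays, and 59 of them had a signal above the median of their chip at 2 or more ages, as did 4130 genes in all. The 7 that did not were Ddx21, Ddx51, Dhx16, Prpf38b, Prpf39, Prpf4b and Snrpa1, and they are not described further. The study measured RNA of whole normal lungs of Swiss Webster mice at 4 embryonic ages (E12, E14, E16 and E18, in days of gestation), at 6 ages in days after birth (P1, P4, P7, P10, P14 and P21) and in adults. No treatment or genotype differs between the groups, and the labels give no adult age. Each age is 1 RNA pool of at least 3 lungs, measured once on each of 2 oligonucleotide chips, here called A and B, so every value at a single age has n = 1. RNA of E12, E14 and E16 was extracted from lungs that had already been combined, and RNA of E18 and later ages from single lungs before it was mixed.

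Introns are removed from messenger RNA by the spliceosome, which is built from small nuclear ribonucleoproteins (snRNPs), each a short RNA with its proteins. The snRNPs recognise the ends and the branch point of an intron, SR proteins (Srsf genes) and heterogeneous nuclear ribonucleoproteins (Hnrnp genes) bind the transcript and steer which sites are used, and helicases of the DEAD box (Ddx) and DEAH box (Dhx) families spend ATP to remodel RNA and RNA-protein complexes. Many Ddx and Dhx helicases act outside splicing, in ribosome assembly, export, translation and decay of RNA. The lung between the earliest and the latest of these ages passes from branching tubes of dividing cells to a gas-exchanging organ.

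Of the 59 members, chip A measured 48 and chip B the other 11, and 0 of them fell to the low-signal floor at any age. The floor is the 25th percentile of the chip, 72.3 on chip A and 47.3 on chip B, and the chip medians are 250.3 and 176.7. The signal exceeded the chip median at all 11 ages in 45 members. Dhx32 exceeded it at postnatal ages alone, so it passed the filter only through the era in which it was higher. Ddx19b exceeded it only at E18 and at 5 postnatal ages, so it passed only through the ages from E18 on, where it was called higher. Hnrnpd exceeded it at E12, E14, E16 and P4, so the ages from E18 on alone would not have let it pass. Of the lung epithelium markers 7 of 11 were on the chips, and their summed signal was 4742 at E12, 6632 at E14, 18968 at E16 and between 19827 and 32256 from E18 on. The sum of 7 of 8 endothelial markers was 7225 to 13945 up to E16 and 21556 to 32871 from E18 on. The sum of 6 of 8 erythroid markers was 43299 at E12, 25251 at E14 and 3706 to 9457 later, with Hba-a1, an alpha globin, listed at 0 at P4, P7, P10 and P14. In mesenchyme, 7 of 7 markers summed to between 30123 and 32091 up to E16 and between 20877 and 55114 from E18 on. Markers of other tissues stood out in 2 pools: 8 of 10 T cell markers summed to 5117 at P1, against 682 to 1893 at the other ages, and 5 of 6 squamous epithelium markers to 7920 at P21, against 1250 to 2538. Heart muscle markers (6 of 8) were likewise highest at P1, at 18689 against 4370 to 12518, and skeletal muscle markers (5 of 6) at P21, at 17098 against 1853 to 6986. The ratio of 3′ to 5′ signal of the Gapdh control, a gauge of RNA integrity, lay between 0.54 and 0.83 on chip A and between 0.66 and 1.06 on chip B. The same ratio of the 18S ribosomal RNA control was 22.26, 38.57 and 10.52 at E12 to E16 and 3.33 to 14.44 at later ages on chip A, and 24.37, 8.22 and 8.01 against 2.55 to 7.48 on chip B. For beta-actin it was 0.39 to 0.4 up to E16 and 0.2 to 0.9 later on chip A, and on chip B 0.94, 0.49 and 0.29 against 0.01 to 0.42.

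Many genes of the splicing machinery had their highest signals in the lungs of E12 to E16. From E18 on (8 ages) 31 of the 59 members were lower than at E12 to E16 (3 ages), or 52.5%, while 21% of all 4130 genes were called lower in that comparison. Only Ddx19b and Dhx32 were called higher, 3.39% of the members against 23.4% of all genes. The median member lay 0.57 lower on the log2 scale, a 1.49-fold difference, and the median of all genes was 0.04. The family median was lowest among the snRNP proteins, at -1.29, followed by the Hnrnp (-0.90), Srsf (-0.80), Prpf (-0.64) and the Sf3 and U2af genes (-0.50). It was -0.23 for both Ddx and Dhx helicases, and differences between families were not tested. Calls are adjusted p-values under 0.05 in limma's moderated test, with Benjamini-Hochberg adjustment over all 4130 genes. The error in that test is the scatter of ages around the mean of their period. Ages of a period are not replicates and neighbouring ages resemble each other, so the p-values are probably too small.

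The split at E18 was chosen with earlier results of these data known, and it coincides with the change from extraction of combined lungs to extraction of single lungs. Age and extraction cannot be told apart in it. In whole lungs, fewer cells that express a gene and less of its RNA per cell cannot be told apart either. Of the values given above, the epithelium and endothelium sums were higher at every age from E18 on than before. Among single markers this held for Ager and Sftpd of the epithelium and for all measured endothelial ones but Tek. The other epithelium markers overlapped between the periods, and Sftpc (10930.8) and Epcam (576.1) were highest at E16. The 18S ratio on chip B was lower at all ages from E18 on. On chip A it was 10.52 at E16 and 10.61 at E18, and the periods overlapped. The erythroid sum fell before the split, from 25251 at E14 to 6087 at E16, and the mesenchyme sums overlapped. The part of cell content and RNA quality in these differences was not tested. Between eras, that is the 7 postnatal against the 4 embryonic ages, 17 members were called lower after birth (28.8%, against 14.2% of all genes) and 1 higher (1.69%, against 16.8%). This count depends on single pools, and the share of all genes called lower moved with it. It was 7 without E12 (11.9%, against 5.16% of all genes), 7 without E14 (11.9%, against 4.24%), 10 without E16 (16.9%, against 8.69%) and 31 without E18 (52.5%, against 21.4%). Without the P1 and P21 pools it was 11 (18.6%, against 9.78%). Along the order of ages 35 members fell (59.3%, against 19.7% of all genes) and Ddx19b and Dhx32 rose (3.39%, against 22.1%). A smooth change of any shape, fitted as a spline with 3 degrees of freedom, was called in 32 (54.2%, against 42.2%). These fits use the same 11 pools, so their counts are not independent of each other. In 19 members none of the 5 fits gave a call, and the share of all genes without any call was not counted.

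**Figure D1:**
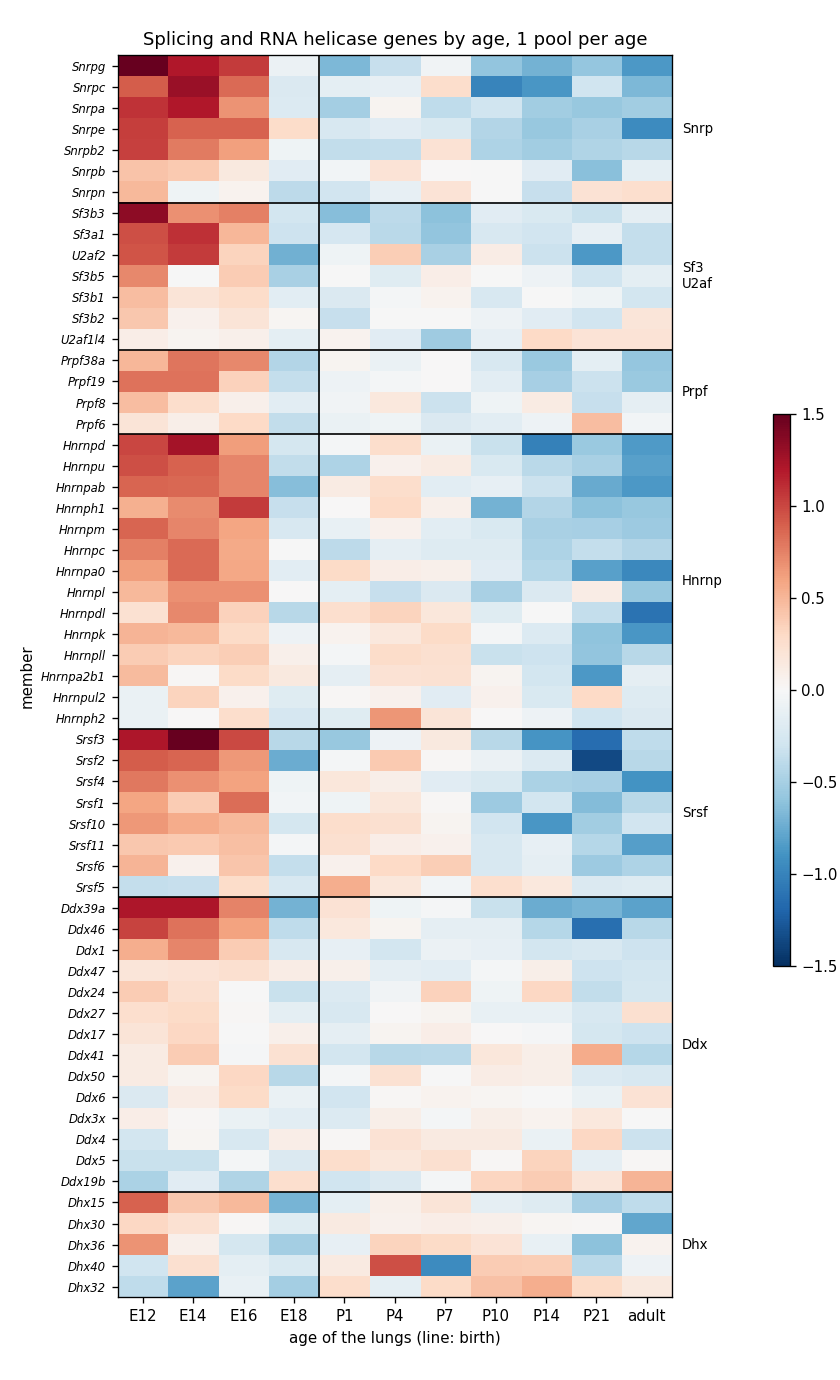
Heat map of the 59 splicing and RNA helicase genes (rows, grouped by family and ordered by their difference from E18 on) at the 11 ages (columns, 1 pool each). Colour gives the log2 signal minus the mean of that gene over the 11 ages, red above and blue below it, and the black vertical line marks birth. The upper rows of the Snrp, Hnrnp and Srsf blocks are red from E12 to E16 and pale or blue from E18 on, while most Ddx rows stay pale throughout.

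The step with the lowest median over the members was the one from E16 to E18. From E16 to E18 the signal was lower in 55 of 59 members, with a median of -0.62 (log2), and 12 members were at least 2-fold lower, while none was 2-fold higher. Over all 4130 genes 1887 were lower and 2226 higher in that step, with a median of 0.06. Of all genes 5.98% were at least 2-fold lower and 8.33% at least 2-fold higher. From E12 to E14 and from E14 to E16 the members' medians were -0.03 and -0.15, and 0 members differed 2-fold. Few genes did so in all: 69 of 4130 were 2-fold lower and 57 higher from E12 to E14, and 82 lower and 174 higher from E14 to E16. In the next steps 37 members were higher at P1 than at E18 (median 0.13), as were 1894 of all 4130 genes (median -0.04), and 41 were higher at P4 than at P1 (median 0.17), as were 2144 of all genes (median 0.02), although 0 members differed 2-fold in either step. Over all genes 3.17% were at least 2-fold lower and 4.12% higher from E18 to P1, and 1.94% and 1.89% from P1 to P4. Accordingly E18 lay below both E16 and P4 in 44 members (74.6%), against 29.7% of all genes. The peak was at E12, E14 or E16 in 48 members (81.4%, against 36.6%), and the lowest signal at P21 or in the adult in 36 (61%, against 24.7%). In 30 members every signal from E18 on lay below all 3 earlier ones (50.8%, against 17.9%), whereas only 3 had every postnatal signal below every embryonic one (5.08%, against 4.75%) and 0 had every postnatal signal above (7.29% of all genes). E18 was the lowest of the 11 ages in 5 members (8.47%, against 5.74%). Steps compare 1 pool with 1 pool and carry no test.

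Promoter sequences of the member that fell furthest from E18 on in each of 4 families are shown here, as examples of start sites of genes that fell together. They are the 250 bases before the annotated start, from RefSeq (GRCm38.p6), written 5′ to 3′ on the strand of the gene, and capitals mark the letters of 6 motifs searched on both strands. Snrpg lies on the plus strand at chr6:86371290-86371539, Sf3b3 on the minus strand at chr8:110846804-110847053, Hnrnpd on the minus strand at chr5:99978939-99979188 and Srsf3 on the plus strand at chr17:29032410-29032659.
Snrpg: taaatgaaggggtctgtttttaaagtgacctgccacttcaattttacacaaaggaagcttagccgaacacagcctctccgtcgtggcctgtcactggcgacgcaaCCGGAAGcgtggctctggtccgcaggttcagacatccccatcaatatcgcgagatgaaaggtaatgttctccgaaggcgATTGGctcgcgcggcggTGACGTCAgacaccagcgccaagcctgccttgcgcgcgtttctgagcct
Sf3b3: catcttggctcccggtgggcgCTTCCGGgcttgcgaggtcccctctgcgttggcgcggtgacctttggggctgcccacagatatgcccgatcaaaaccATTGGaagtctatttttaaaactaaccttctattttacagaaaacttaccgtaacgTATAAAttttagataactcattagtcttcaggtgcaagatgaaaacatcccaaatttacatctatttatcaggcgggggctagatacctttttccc
Hnrnpd: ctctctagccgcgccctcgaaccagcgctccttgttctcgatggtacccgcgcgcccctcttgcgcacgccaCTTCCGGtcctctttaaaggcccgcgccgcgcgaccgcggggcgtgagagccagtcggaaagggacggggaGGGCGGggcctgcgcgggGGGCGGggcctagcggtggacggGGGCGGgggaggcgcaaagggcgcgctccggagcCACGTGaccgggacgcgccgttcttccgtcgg
Srsf3: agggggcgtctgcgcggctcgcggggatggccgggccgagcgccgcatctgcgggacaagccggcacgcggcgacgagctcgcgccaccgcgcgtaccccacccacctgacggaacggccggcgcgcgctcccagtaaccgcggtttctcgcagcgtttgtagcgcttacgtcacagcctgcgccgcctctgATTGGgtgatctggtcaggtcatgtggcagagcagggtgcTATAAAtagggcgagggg
In the Snrpg window the ETS core CCGGAAG begins 145 bases before the start, a CCAAT box lies in reverse (ATTGG) and a cyclic AMP response element, TGACGTCA, begins 49 bases before the start. Sf3b3 and Hnrnpd carry the ETS core in reverse (CTTCCGG), 229 and 178 bases before the start. The Hnrnpd window also has 3 GC boxes (GGGCGG) and an E-box (CACGTG), and 74.4% of its bases are G or C, against 45.6% in Sf3b3. Srsf3 has the ATTGG letters and a TATA box, TATAAA, that begins 18 bases before the start.

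The same 6 motifs were counted in windows of 300 bases, from 250 before to 50 after the start, for the 52 members that the promoter table holds. The ETS core was present in 20 of 52 members, against 18.1% of 3307 kept genes with a promoter and 9.12% of all 27025 genes in the table. It was found in 11 of the 27 members called lower from E18 on and in 9 of the 23 that did not pass. GC boxes were in 31 of 52 members (64.7% of kept genes, 35.9% of all) and the CCAAT letters in 28 (37.7% and 37.9%). TATAAA was in 6 members, Hnrnpab, Hnrnpm, Sf3b3, Snrpa, Srsf2 and Srsf3, all among the 27 called lower (8.98% of kept genes, 14.2% of all). CACGTG was in 6 (10.8% and 7.24%) and TGACGTCA in 3 (3.11% and 1.88%). The ETS core and the GC box can share letters where they meet. A match describes the letters and is neither a bound site nor a cause.

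The Snrp genes encode proteins of the snRNP particles themselves. Of the 7 measured 6 were lower from E18 on, against 21% of all genes. Snrpg and Snrpe encode subunits of the Sm ring that all the major spliceosomal snRNPs except U6 share. Snrpg had a signal of 5042.5 at E12, 3711.8 at E14, 3336.6 at E16 and 1510.1 at E18, and after birth it lay between 883.3 and 1545.5 with a median of 1068.9. Every age from E18 on was below every earlier one, and E18 lay inside the postnatal range. The mean log2 signal was 11.95 ± 0.31 (SD, n = 3 ages) up to E16 and 10.16 ± 0.29 (SD, n = 8 ages) afterwards, a 3.46-fold fall (log2 difference -1.79 ± 0.20 SE, limma adjusted p = 6.44e-05). Snrpe gave 8725.1, 7903.5, 7857.8 and 5170 at the 4 embryonic ages and 2214.5 to 3804.9 (median 3149.8) after birth. Here E18 stood in between, above every postnatal and below every earlier age, and the fall from E18 on was 2.44-fold (-1.29 ± 0.21 SE, adjusted p = 0.000497).

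Values of the other ring subunits follow, and their differences from these were not tested. Snrpb, which encodes the SmB proteins, had 6683.2 at E12, 4415.7 at E18 and 3226.4 to 5722.9 (median 4828) after birth. Its fall of 1.36-fold from E18 on passed narrowly (-0.44 ± 0.16 SE, adjusted p = 0.0411), its periods overlapped, and the postnatal to embryonic difference did not pass (adjusted p = 0.181). Snrpn, an imprinted gene whose SmN protein stands in for SmB mainly in brain, had 475.2, 324.7, 352.9 and 258.8 before birth and 266.4 to 403.6 after it. These ranges overlap, and its difference from E18 on was -0.22 ± 0.18 SE (adjusted p = 0.361).

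Among proteins of single snRNPs, Snrpa and Snrpc belong to U1, which binds the 5′ splice site, and Snrpb2 to U2, which binds the branch point. Snrpa had 4337.8, 4683.9, 3269.1 and 1779.4 at the embryonic ages and 1373.6 to 2099.5 (median 1439.7) after birth, a 2.56-fold fall from E18 on (-1.36 ± 0.16 SE, adjusted p = 1e-04). Snrpc went from 1558.5 at E14 to 543.2 at E18 and, within the postnatal ages, from 760.1 at P7 to 319.8 at P10, its widest step. Its difference from E18 on was 2.64-fold (-1.40 ± 0.25 SE, adjusted p = 0.000852). In both genes all ages from E18 on lay below all earlier ones. Snrpb2 fell 2.16-fold, from 955.5 at E12 to between 328.5 and 547.1 after birth (adjusted p = 0.000367). In the postnatal to embryonic comparison 5 of the 7 Snrp genes were lower (14.2% of all genes) and the family median was -1.08.

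**Figure D2:**
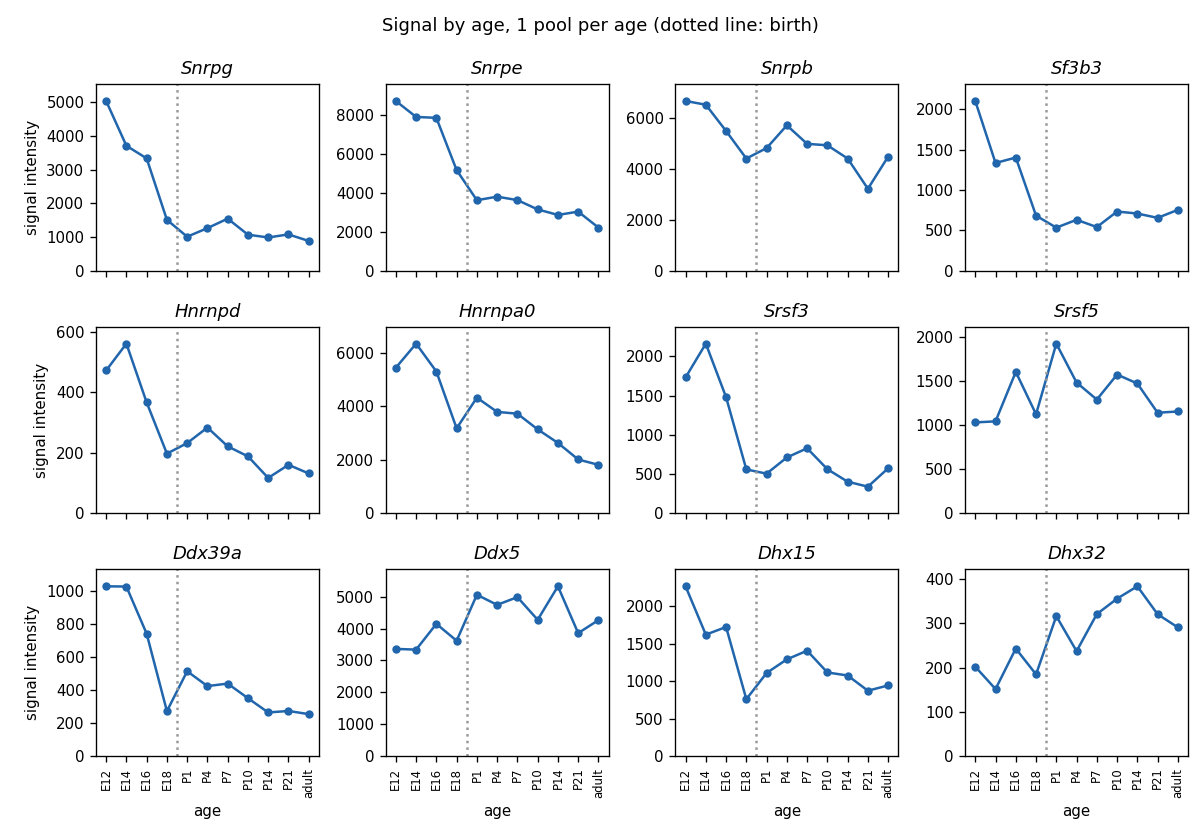
Signal intensity (linear axis from 0, a scale of its own for each gene) of 12 members against age, 1 pool per point, with birth as a dotted line. Snrpg, Sf3b3, Srsf3 and Ddx39a drop between E16 and E18 and stay low, Snrpb overlaps between the periods, and Ddx5 and Dhx32 are higher after birth at most ages. The values of different genes should not be set against each other, since probe sets differ in sensitivity.

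The Sf3 genes encode the SF3A and SF3B parts of the U2 snRNP, which grip the branch point, and the U2AF proteins bind the 3′ end of the intron ahead of U2. Of these 7 genes 5 were lower from E18 on, against 21% of all genes. Sf3b3, a scaffold of SF3B, had 2104.6, 1335.4, 1402.9 and 682.4 at the embryonic ages and 533.6 to 754.3 (median 654.9) after birth. All ages from E18 on were below all earlier ones, and the fall was 2.43-fold (-1.28 ± 0.17 SE, adjusted p = 0.000149). Sf3a1 behaved alike, with 984.3, 1074.3, 714.4 and 406 before birth and 334.8 to 464 after it (2.25-fold, -1.17 ± 0.15 SE, adjusted p = 0.000116). U2af2, the large U2AF subunit that binds the polypyrimidine tract, went from 469.4 at E14 to 138.2 at E18 and to between 125.7 and 293.4 after birth. It fell 2.10-fold from E18 on (adjusted p = 0.00494) but its postnatal to embryonic difference did not pass (adjusted p = 0.152).

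The remaining genes of this group had smaller differences. Sf3b1, which contacts the branch point and is often mutated in human myelodysplasia, fell 1.34-fold (-0.42 ± 0.12 SE, adjusted p = 0.0124), from 1605 to 1943.7 up to E16 to between 1166.8 and 1457.1 later. Sf3b5 fell 1.42-fold (adjusted p = 0.0285), with its lowest signal, 1041.5, at E18 itself. Sf3b2 (-0.31 ± 0.14 SE, adjusted p = 0.0907) and U2af1l4, a relative of the small U2AF subunit (-0.10 ± 0.17 SE, adjusted p = 0.657), did not pass. The difference between Sf3b3 or Sf3a1 and these subunits was not itself tested.

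The Prpf genes encode proteins of the U4/U6.U5 tri-snRNP and of complexes that activate the spliceosome. Prpf19, the ubiquitin ligase at the core of a complex that joins the spliceosome as it is activated, had 2499.7, 2501.8, 1809 and 1111.9 before birth and 966.3 to 1424.2 (median 1270) after it. The fall from E18 on was 1.88-fold (-0.91 ± 0.16 SE, adjusted p = 0.000914), with no overlap between the periods. Prpf38a, needed for activation, fell 1.90-fold (adjusted p = 0.000843), from 494.4 to 610.8 up to E16 to between 233.5 and 359.9 later. Prpf8, the central U5 protein (-0.36 ± 0.14 SE, adjusted p = 0.0564), and Prpf6, which bridges the tri-snRNP (-0.26 ± 0.16 SE, adjusted p = 0.199), did not pass. Prpf6 was highest at P21 (1064.3, 1 pool), the pool with the most squamous and skeletal muscle marker signal. The part of other tissue in this value was not tested.

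**Figure D3:**
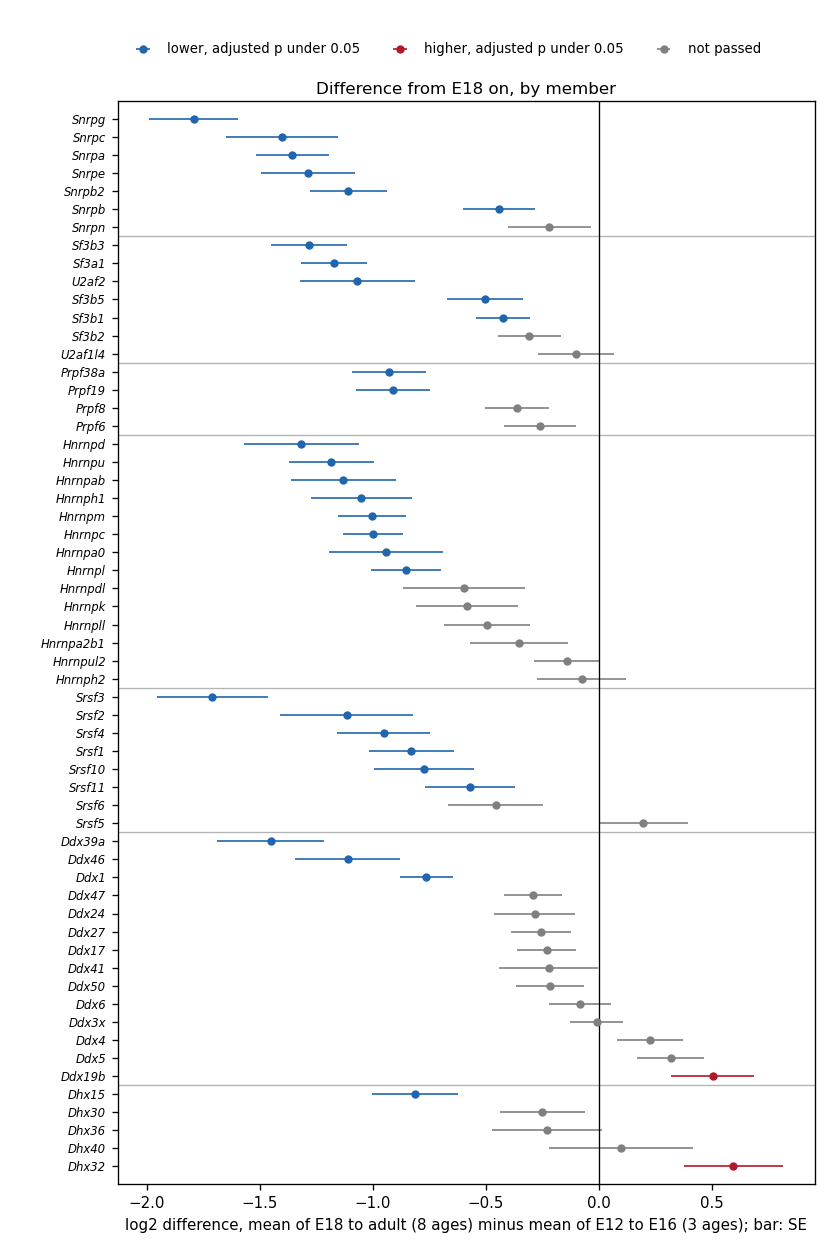
Log2 difference of each member between the mean of E18 to adult (8 ages) and the mean of E12 to E16 (3 ages), with limma's SE as bars, grouped by family and ordered by size. Blue marks the 31 members called lower, red the 2 called higher and grey the 26 that did not pass at an adjusted p of 0.05. Snrpg (-1.79) and Srsf3 (-1.71) lie furthest left, and Ddx19b (0.50) and Dhx32 (0.59) furthest right.

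Of the 14 Hnrnp genes 8 were lower from E18 on (21% of all genes), and 12 fell along the order of ages (19.7% of all genes). Hnrnpd, whose AUF1 protein binds AU-rich elements of short-lived messenger RNAs, had 472.5, 561.3, 366.9 and 197.5 at the embryonic ages and 117.1 to 283.8 (median 188.4) after birth, a 2.49-fold fall (-1.32 ± 0.25 SE, adjusted p = 0.00144). Only 4 of its 11 signals exceeded the chip median, those of E12, E14, E16 and P4. It thus passed the filter through the period in which it was higher. Hnrnpu, a nuclear scaffold protein, had 3392.9, 3189.3 and 2873.6 at E12 to E16, 1336.1 at E18 and 984 to 1880.2 after birth (2.27-fold, -1.18 ± 0.19 SE, adjusted p = 0.000434). Hnrnpc, which binds uridine tracts in nascent RNA, had 4608.3, 4929.5, 4057.5 and 2722.6 before birth and 1977.4 to 2476.4 after it, so that every postnatal age was below every embryonic one. Its difference was 2-fold (-1.0 ± 0.13 SE, adjusted p = 0.000156). Hnrnpm had 4526.7, 4107.3 and 3740 up to E16 and 1697 to 2590.5 after birth, with 2103.7 at E18 (-1.0 ± 0.15 SE, adjusted p = 0.000344).

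Hnrnph1, which binds G runs, peaked at 2892.1 at E16 and had 1101.2 at E18 (-1.05 ± 0.22 SE, adjusted p = 0.00262). Its X-linked relative Hnrnph2 did not pass (-0.08 ± 0.20 SE, adjusted p = 0.779) and was highest at P4 (386.5). Hnrnpl, which binds CA repeats, was lower by 0.85 ± 0.16 SE (adjusted p = 0.00101), with all ages from E18 on below the 3 earlier ones. Hnrnpk (-0.58 ± 0.22 SE, adjusted p = 0.0523) and Hnrnpll (-0.50 ± 0.19 SE, adjusted p = 0.0519) missed the threshold for the split at E18, but both fell along the order of ages (adjusted p = 0.00279 and 0.00378). Hnrnpdl, Hnrnpa2b1 and Hnrnpul2 did not pass at E18, with differences of -0.60, -0.35 and -0.14.

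SR proteins promote the choice of splice sites through exonic enhancers. Of the 8 Srsf genes 6 were lower from E18 on, against 21% of all genes. Srsf3, the smallest of the family, had 1732.1 at E12, 2163.3 at E14, 1480.8 at E16, 559.6 at E18 and 339.7 to 829.4 (median 562.7) after birth. It varied more than any other member, 6.37-fold between its highest and lowest age, and its fall from E18 on was 3.27-fold (-1.71 ± 0.24 SE, adjusted p = 0.000251). No later age reached any of the first 3. Srsf2, an SR protein of nuclear speckles, went from 1402 at E16 to 531.7 at E18 and from 770.7 at P14 to 347.2 at P21 (-1.12 ± 0.29 SE, adjusted p = 0.00873). Srsf4 had 1332, 1232.2, 1164.7 and 733.1 before birth and 413.3 to 864.5 after it (-0.95 ± 0.20 SE, adjusted p = 0.00283). Srsf10, which represses splicing when dephosphorylated, had 351 to 392.1 up to E16 and 136.9 to 300 after birth (-0.77 ± 0.22 SE, adjusted p = 0.0129).

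Srsf5 was the only gene of the family with a positive difference from E18 on, and it did not pass. It had 1030.3, 1041.7, 1602.3 and 1122 at the embryonic ages and 1139.8 to 1922.3 after birth, highest at P1, with a difference from E18 on of 0.20 ± 0.20 SE (adjusted p = 0.452). The P1 pool was also the one with T cell and heart muscle markers at their highest, and their part in this value was not tested. Srsf1 and Srsf6 were read by probe sets on both chips, the only repeated measurement of a pool on different chips among the members. The Srsf1 probe set used had 1196.7, 1036.5, 1425.4 and 775.7 before birth and 508 to 893.4 after it (-0.83 ± 0.19 SE, adjusted p = 0.00373). Its 3 kept probe sets gave postnatal minus embryonic differences between -1.13 and -0.70. For Srsf6 the chip B probe set used did not pass from E18 on (-0.46 ± 0.21 SE, adjusted p = 0.0961), while the chip A probe set gave -0.90 (adjusted p = 0.000922 in a fit of chip A alone). In 9 of the 12 members with several kept probe sets all had the same sign between eras, and the exceptions, Ddx6, Hnrnpul2 and Snrpb, had differences near 0 in at least 1 of them. The same sign does not mean the same size: Hnrnpc had 4 probe sets, from -0.87 to -0.27, and the 2 of Ddx3x gave 0.05 and 0.66.

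**Figure D4:**
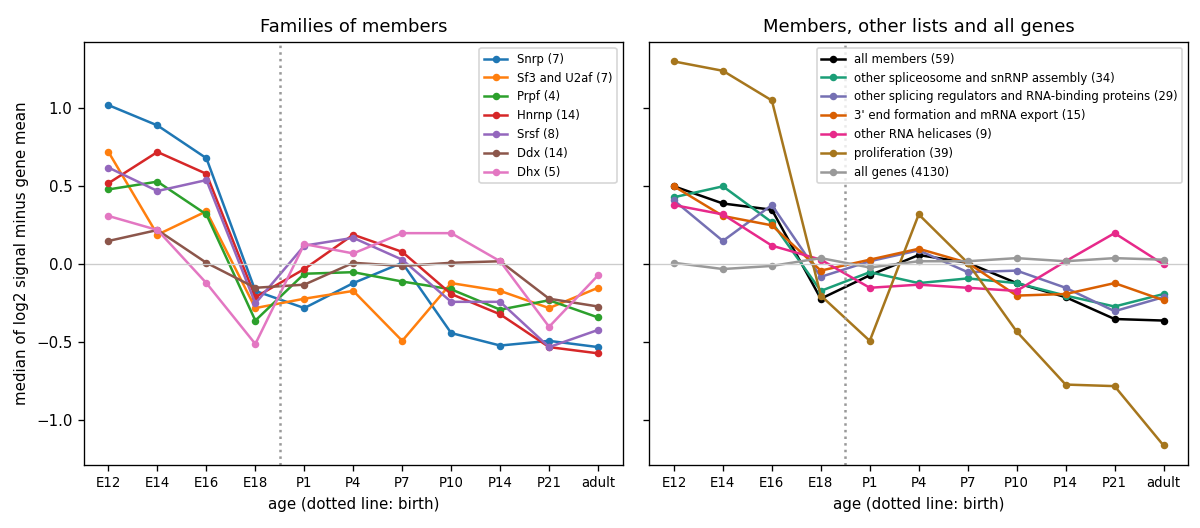
Median over genes of the log2 signal minus each gene's mean over the 11 ages, against age, with the number of genes in brackets and birth as a dotted line. The left panel shows the 7 families, of which Snrp starts highest (1.02 at E12) and Ddx varies least. The right panel sets all 59 members beside other lists and all 4130 genes, which stay near 0, and proliferation genes start at 1.30 and end at -1.16.

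Among the 14 Ddx genes 3 were lower from E18 on and 1 was higher, and among the 5 Dhx genes 1 was lower and 1 higher. Of all genes 21% were called lower and 23.4% higher, so the counts of lower helicases lie near the share of all genes. The Ddx genes called lower were Ddx39a, Ddx46 and Ddx1. Ddx39a, which takes part in mRNA export, had 1027.5, 1026, 740.4 and 271.7 before birth and 253.5 to 513.1 (median 350) after it, and its E16 to E18 step of -1.45 was the steepest of any member in that step. Its fall from E18 on was 2.73-fold (-1.45 ± 0.24 SE, adjusted p = 0.000532), with no overlap. Ddx46, the relative of yeast Prp5 that acts on U2 at the branch point, had 440.1 to 582.5 up to E16 and 132.2 to 322.1 later (-1.11 ± 0.23 SE, adjusted p = 0.00234). Ddx1, a member of the tRNA ligase complex, had 2942.2, 3369.4, 2636.2 and 1712.3 before birth and 1629.2 to 1904.9 after it (-0.76 ± 0.12 SE, adjusted p = 0.00035). Dhx15, which takes spent spliceosomes apart, had 2263.6, 1618.7 and 1720.9 up to E16, its lowest value, 757.7, at E18, and 871.1 to 1404.6 after birth (-0.81 ± 0.19 SE, adjusted p = 0.00454). Of these 4 helicases Ddx46 and Dhx15 act in the spliceosome.

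The differences of the next helicases did not pass from E18 on. Those linked to ribosome assembly were Ddx47 (-0.29 ± 0.13 SE, adjusted p = 0.0839), Ddx24 (-0.28), Ddx27 (-0.26) and Ddx50 (-0.22). Ddx3x, an X-linked gene of translation, had 2071.3 to 2471.5 before birth and 1997.6 to 2579.8 after it and differed by -0.01 ± 0.12 SE (adjusted p = 0.951). A second, dimmer kept probe set of Ddx3x had 989.7 to 1204.8 before birth and 1175.2 to 2194.4 after it. Its postnatal minus embryonic difference was 0.66, against 0.05 for the probe set used, so the reading of Ddx3x depends on the probe set. Ddx6, a factor of mRNA decay and storage, differed by -0.08 ± 0.14 SE (adjusted p = 0.656). The paired RNA helicases Ddx5 and Ddx17, which also act as transcriptional coregulators, did not pass either: Ddx5 had 3338.1 to 4146.1 before birth and 3855 to 5324.2 after it (0.32 ± 0.15 SE, adjusted p = 0.101), and Ddx17 differed by -0.23 ± 0.13 SE (adjusted p = 0.173). Ddx4, the germ cell helicase Vasa, had 138 to 213.9 at all 11 ages, around the chip B median, and differed by 0.22 ± 0.15 SE (adjusted p = 0.235). Of 6 germ cell markers, Ddx4 among them, 5 were on the chips and summed to 364 to 792.

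Dhx32 and Ddx19b were the only members called higher. Dhx32, a DEAH box protein of little known function, had 201.9, 151.3, 242.8 and 184.5 before birth and 237 to 383.6 (median 320.5) after it, with P4 below E16. It was 1.64-fold higher after birth (0.71 ± 0.16 SE, adjusted p = 0.00953, range over the alternatives 0.00751 to 0.0417), while its call from E18 on (adjusted p = 0.0444) was lost under 13 alternatives. Ddx19b, which releases mRNA at the nuclear pore, had 189.4, 232.3, 191.9 and 311.8 before birth and 212.9 to 372.1 after it. It was higher from E18 on (0.50 ± 0.18 SE, adjusted p = 0.0413) and along the order of ages (adjusted p = 0.0109), and not between eras (adjusted p = 0.214). Ddx19b, like Dhx32, exceeded the chip median at no age before E18. Both thus passed the filter only through the period in which they were called higher. Dhx40 had the widest step of any member: 929.8 at P4, 248.6 at P7 and 623.5 at P10, in single pools, with 361.4 to 616.8 at the other ages. No fit called it.

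Within the postnatal ages the median of the members, relative to each gene's own mean, was -0.07 at P1, 0.06 at P4 and -0.36 in the adult. That of the Hnrnp genes was -0.03, 0.19 and -0.57 at these ages. A straight line through the 7 postnatal ages, fitted in limma, was called falling in 5 members (8.47%, against 1.23% of all genes). It was called rising in 0 (1.86% of all genes). The 5 were Hnrnpa0, Hnrnpab, Srsf4, Srsf11 and Ddx39a. Hnrnpa0, an hnRNP that binds AU-rich RNA, went through 4319.7 at P1, 3788.1 at P4, 3720.9 at P7, 3136.1 at P10, 2629.7 at P14, 2011.4 at P21 and 1810.6 in the adult, lower at each age than at the one before. The slope was -0.22 ± 0.03 SE per age step (adjusted p = 0.0198). Hnrnpab, a relative of Hnrnpd, went from 3400.1 at P1 and 3760.5 at P4 to 1852.7 at P21 and 1723.7 in the adult (-0.18 ± 0.04 SE, adjusted p = 0.0397). Srsf11 went from 1897.9 at P1 to 906.3 in the adult (-0.16 ± 0.03 SE, adjusted p = 0.0491), Srsf4 from 864.5 to 413.3 (adjusted p = 0.0342) and Ddx39a from 513.1 to 253.5 (adjusted p = 0.0375). Without P4, without P21 or without the adult pool 0 members were called falling. Without P7, without P10, without P14, or without P1 and P21 together, 1 was called. The share of all genes called falling under these settings is not given. By contrast Snrpg, Sf3a1 and Sf3b3 had postnatal slopes of -0.06 ± 0.05, 0.02 ± 0.04 and 0.07 ± 0.03 SE per age step, none of which passed.

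Other genes of RNA processing were taken from lists written with earlier results known. Their counts stand beside 14.2% of all genes called lower and 16.8% called higher after birth. In the postnatal to embryonic comparison, of 34 measured genes of the spliceosome and snRNP assembly 10 were lower and 0 higher, led by Lsm3, a subunit of the Lsm ring of U6 (-1.04 ± 0.26 SE, adjusted p = 0.0127), the Prpf19 partner Plrg1 (-1.0 ± 0.29 SE, adjusted p = 0.022) and the methylosome gene Wdr77 (-0.96 ± 0.29 SE, adjusted p = 0.0274). Of 29 other splicing regulators and RNA-binding proteins 9 were lower and 2 higher, with Fxr1 (-1.14 ± 0.19 SE, adjusted p = 0.00307), Tardbp (-0.96 ± 0.21 SE) and Nono (-0.92 ± 0.21 SE) changing most. In 3′ end formation and mRNA export 5 of 15 were lower and 0 higher, among them the export adaptor Alyref (-1.24 ± 0.29 SE, adjusted p = 0.0103), Pabpc1 of the poly(A) tail (-1.02 ± 0.21 SE) and Cstf3 of the cleavage machinery (-1.02 ± 0.29 SE). Of 9 other RNA helicases 2 were lower and 2 higher, counts not far from the shares of all genes. Eif4a1 of translation initiation went from 7746.3 at E12 to 2182.3 in the adult, whereas Znfx1 was higher (0.90 ± 0.20 SE, adjusted p = 0.00953). The other helicase called higher was the viral RNA sensor Ifih1, which exceeded the chip median only at P21 (346.4) and in the adult (279.1) and so passed the filter through the era in which it was higher. The medians of the 4 lists were -0.36, -0.29, -0.35 and -0.29, beside -0.42 for the members and 0.01 for all genes.

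Proliferation genes were also lower from E18 on. Of 39 measured, 34 were lower after birth and 39 lower from E18 on, with medians of -1.31 and -1.71. The shares of all genes called lower were 14.2% and 21%. Relative to each gene's own mean, their median stood at 1.30, 1.24 and 1.05 at E12 to E16, -0.20 at E18, -0.49 at P1, 0.32 at P4 and -1.16 in the adult. The corresponding medians of the 59 members were 0.50, 0.39 and 0.35, then -0.22, -0.07, 0.06 and -0.36. Both lists were thus lower at E18 than at E16 and higher at P4 than at E18. The members reached their low point of the perinatal ages at E18 and the proliferation genes at P1. The part of dividing cells in the members' values was not tested.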

How the data were processed

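The authors deposited signal intensities on a linear scale, with 1 value for each probe set on each array. They had already been scaled, since the mean after trimming 2% was 500.1 to 500.2 on chip A arrays and 498.4 to 498.9 on chip B arrays. How probe cells were combined is not stated in the labels or file headers. Signals were used as deposited, raised to the chip's 25th percentile where lower, and taken to log2. Probe sets with 2 or more ages above the chip median were kept, and each gene was read from its brightest probe set, by the mean over ages. Gene names came from the platform annotation, and 8 probe sets of several genes that include such a symbol were left out. In 45 of the 59 members the probe set name ends in s_at or f_at, which marks probes shared between transcripts, so related genes can share signal.

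The 5 fits named in the results were made with limma 3.58.1 in R 4.3.3, two-sided, over 4130 genes. On simulated data for the comparison of eras, the procedure called 44 and 43 of 50 genes changed by -1 and 1 (log2), and 50 and 49 of 50 changed by -2 and 2. It also called 15 of the unchanged genes, in a set of 4130 that included the changed ones. The simulated noise was independent between ages, with the residual scatter around the spline and no trend within an era. Real ages have such trends, so these counts do not give the error rate in the real data. Members, gene lists, the split at E18 and the rule for named genes were chosen with earlier results of these data known. That rule took the up to 4 largest called era differences per family, members called higher after birth, the 3 widest steps and members read on both chips. It also took members called along the postnatal ages but not between eras, whatever the other fits gave. Other members are described after their values were seen. A further part of the rule, relatives by protein identity, was not run. Alternatives were other floors, filters, scalings, probe set rules, single chips, a prior trend and each age left out. The number of arrays limits the precision, and p-values rest on scatter between ages.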

Additional observations from a re-analysis of the deposited data

Results flagged for a closer look

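Among the 22 members chosen by the naming rule, each era of 4 or 7 ages was tested for a single age far from the others, 44 groups in all, and chance alone would mark about 1 in 20. In 2 of them E18 lay far below the other embryonic ages. Hnrnpab had 2004.9 at E18, with the nearest embryonic signal 5197 at E16, and Srsf11 had 1574.7 at E18, with the nearest 2115 at E14. Neither gene was called between eras (limma adjusted p = 0.0955 and 0.0843), and both were called lower from E18 on (adjusted p = 0.00215 and 0.0341).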

How the results depend on the processing

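No called difference of a named member changed sign under the alternatives. Leaving out 1 age at a time gave 7 to 31 members lower after birth, 1 to 2 higher, 26 to 37 falling along age, 2 rising each time, 26 to 34 lower from E18 on, 0 to 6 falling after birth and 21 to 35 on the spline. The 21 came without E14. Chip B alone, with 11 members, gave 5 lower and 0 higher after birth, and 7 falling and 0 rising along age. It gave 7 lower from E18 on, 0 falling after birth and 6 on the spline. The share of all genes called lower after birth moved with the embryonic age left out, as given above. For calls along age, from E18 on, after birth along age and on the spline, shares of all genes under these settings are not given. These member counts alone therefore do not show whether the members moved apart from all genes. Members higher after birth were 2 with a floor at the 10th percentile, no filter, a filter on the mean, quantile normalisation, the mean of probe sets or a prior trend. Without a filter 3 fell after birth. Without the P1 and P21 pools, an alternative chosen after seeing the data, 11 were lower after birth, 31 lower from E18 on and 1 falling after birth. The cause of these shifts was not tested. Scaling by array medians moved the median of all genes between eras to -0.088. Between eras the calls of Dhx32, Hnrnpc, Sf3b3, Snrpg, Snrpe and Snrpa held under all alternatives that tested them, while Prpf19 was lost in 10. From E18 on Srsf11 was lost in 6 and Dhx32 in 13. A block for scan date or chip lot was not run, since the scanner settings used here give neither. No paired analysis was possible because each age is 1 pool without replicate numbers. Signals near the chip median limit Ddx4, Ddx41, Hnrnph2 and Hnrnpd.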

Other observations

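Among members not described above, Dhx36, a helicase that unwinds G-quadruplexes, had 466.8 at E12, 204.7 at E18 and 190.4 to 370 after birth, and its difference from E18 on was -0.23 ± 0.24 (log2, SE; limma adjusted p = 0.478). Dhx30, which serves mitochondrial ribosomes, lay between 698.8 and 986.8 at the first 10 ages and at 462.2 in the adult alone. It passed the spline (adjusted p = 0.0373) and none of the straight lines (adjusted p = 0.104 over all ages). Ddx41, linked to splicing and to sensing of DNA, was highest at P21 with 296.6 and lowest in the adult with 149.6, each in 1 pool, and no fit called it.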
